A study of Mus musculus with 24 samples.

Results

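The 34 genes described here make cholesterol and fatty acids or control that work. They comprise 18 enzymes of the sterol pathway, 5 genes for sterol regulators and transport (Insig1, Stard4, Srebf1, Srebf2 and Scap) and 11 enzymes of fatty acid synthesis. They were taken by gene symbol from the textbook pathways, with earlier results of these data known. All 34 were found among the 16604 genes used, and all 34 passed the filter on low values, which kept 11297 genes with at least 1 FPKM (fragments per kilobase of transcript scaled to the mapped fragments) in at least 3 of 24 libraries.

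RNA was sequenced from EMS404, a hepatic stellate cell line from the liver of a C57Bl6 mouse that was immortalised with SV40 and expresses human TLR4. All groups share this background, and the data come from 1 line. The 8 groups of 3 biological samples were vehicle (called untreated in the sample titles and DMSO in the library names), TGFb, and the compounds SB431542, SR9011 and CLK8, each without and with TGFb. SB431542 inhibits the TGFb receptor, SR9011 is an agonist of the clock repressor REV-ERB alpha, and CLK8 disrupts the dimer of the clock activators CLOCK and BMAL1. Compounds were given for 24 h, and TGFb at 10 ng/mL was then present together with the compound for 24 h. No source used here gives the compound doses or the time in culture of the groups without TGFb, so TGFb and time in culture cannot be told apart.

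Cholesterol is built from acetyl-CoA through mevalonate, squalene and lanosterol, and fatty acids are built from the same acetyl-CoA through malonyl-CoA. Both pathways are switched on by the SREBP transcription factors, which Srebf1 and Srebf2 encode. When sterols run low, the escort protein Scap carries SREBP from the endoplasmic reticulum to the Golgi, where it is cut and set free for the nucleus, and Insig1 holds the complex back when sterols are plentiful. Quiescent stellate cells store lipid and retinoid droplets, and lose them on activation.

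The SREBP site of a promoter is short and usually works beside a CCAAT box, bound by NF-Y, and a GC box, bound by Sp1. In the 250 bases before the RefSeq start site, available for 27 of the 34 genes (build GRCm38.p6), the letters TCACNCCAC were found in 1 gene, Hmgcs1, and the looser TCACNCNAC, which includes them, in 1 more, Nsdhl. Both strands were searched. These promoters are shown because they hold the only such matches, with the match in capitals. The Hmgcs1 window is chr13:119690101-119690350 and the Nsdhl window chrX:72918271-72918520, both on the plus strand.
Hmgcs1: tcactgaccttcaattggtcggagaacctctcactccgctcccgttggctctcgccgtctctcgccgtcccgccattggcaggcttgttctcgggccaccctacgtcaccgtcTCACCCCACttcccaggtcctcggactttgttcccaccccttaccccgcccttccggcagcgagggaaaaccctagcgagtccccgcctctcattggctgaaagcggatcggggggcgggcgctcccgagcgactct
Nsdhl: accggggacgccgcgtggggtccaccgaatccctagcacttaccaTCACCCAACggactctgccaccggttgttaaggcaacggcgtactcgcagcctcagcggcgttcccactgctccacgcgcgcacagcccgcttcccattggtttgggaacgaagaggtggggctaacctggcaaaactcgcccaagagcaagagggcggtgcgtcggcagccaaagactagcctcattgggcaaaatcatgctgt

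The match begins 137 bases before the start site in Hmgcs1 and 205 before it in Nsdhl. A gene was counted if any of its promoters held a match. TCACNCCAC was present in 1.21% of tested genes and TCACNCNAC in 2.88% (1.22% and 2.65% of all genes). CCAAT was found in 21 of the 27 genes, 77.8% against 41.5% of tested genes, and in 14 of 15 among sterol enzymes. The GC box letters GGGCGG were found in 22 of 27, or 81.5% against 66.4% of tested genes. CACGTG, the E-box that CLOCK and BMAL1 can bind and that reads the same on both strands, was found in 6 of 27, or 22.2% against 10.1%, namely Hsd17b7, Dhcr7, Sc5d, Insig1, Scap and Elovl5. AGGTCA, the core of a site for nuclear receptors such as REV-ERB, was found in 5 of 27 (Elovl6, Insig1, Dhcr7, Acly and Hmgcs1), or 18.5% against 12.5%, and overlapped the E-box in Insig1. These matches describe letters in a short window and do not show binding.

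The libraries carried the markers of activated stellate cells, with a median of 16.2 FPKM for Pdgfrb, 68.6 for Hand2, 10.6 for Lhx2, 102 for Acta2 and 1276 for Col1a1. Des reached at most 0.39 and Rgs5 0.37, and Reln was listed at 0 in all 24 libraries. Lrat was looked for but not found among the genes used. The listed markers of hepatocytes (Alb, Ttr, Apoa1, Cyp2e1) and adipocytes (Adipoq, Plin1, Lep, Cidec, Retn) did not exceed 0.15. Cd68 of the macrophage list reached 2.9, Tek of the endothelial list 2.92 and Krt7 of the bile duct list 7.27, while Ptprc stayed at or under 0.02, Pecam1 at or under 0.13 and Epcam at or under 0.27. FPKM summed to 504304 to 610449 per library. The SR9011 group was the most scattered, each of its 3 libraries deviating from the group mean more than any other library did, with mean squared deviations of 0.00925 to 0.0192 on the log2 scale against 0.00346 to 0.00891 elsewhere, so results for that group are also given without its libraries where that matters.

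In vehicle cells the pathway was fully expressed. Means ran from 7.95 ± 0.312 FPKM (SD, n = 3) for Hsd17b7, a ketosteroid reductase, to 195 ± 6.59 for Fdps, the farnesyl diphosphate synthase, among sterol enzymes. In the fatty acid arm they ran from 10.8 ± 0.526 for Acss2, which makes acetyl-CoA from acetate, to 498 ± 12.7 for Scd2, a desaturase that makes monounsaturated fatty acids. The related Scd1 was at 86.2 ± 1.24, and reads that fit both of these similar genes could have been split by the counting. Srebf2 stood at 124 ± 3.14 and Srebf1 at 46.4 ± 1.6. The 34 genes together made up 0.497% of summed FPKM in vehicle, 0.501% with TGFb and 0.577% with CLK8, but 0.336% with SR9011 (0.306% to 0.385%) and 0.377% with SR9011 and TGFb.

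**Figure D1:**
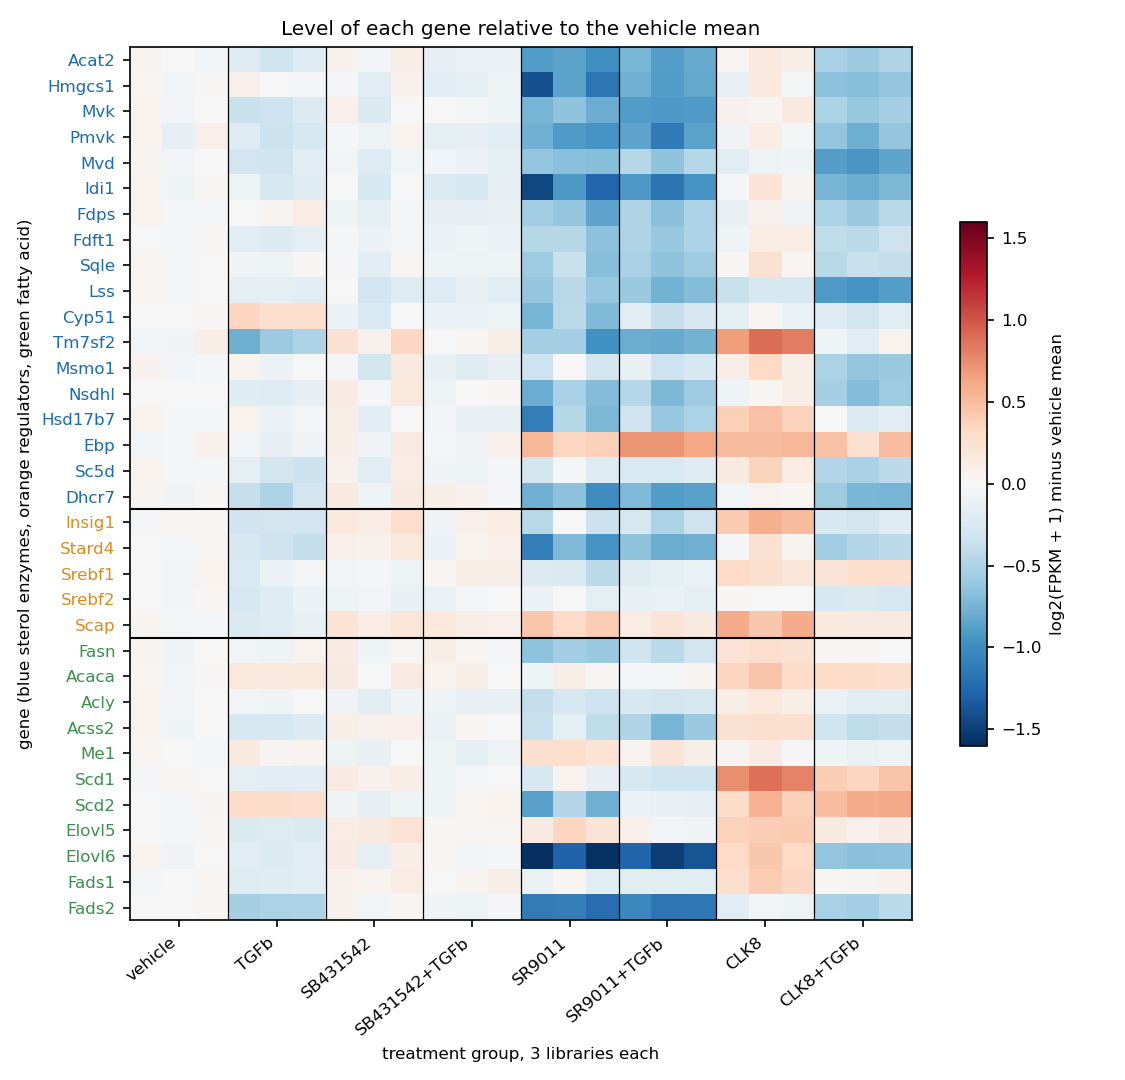
Rows are the 34 genes by arm, columns the 24 libraries in 8 groups, and the colour is log2(FPKM + 1) minus the vehicle mean (blue lower, red higher). Most sterol enzymes are blue in both SR9011 groups and in CLK8 with TGFb, whereas Ebp is red in all 4 groups with SR9011 or CLK8.

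Across the 8 groups both arms had most of their lowest means in the SR9011 groups and most of their highest in CLK8. Of the 18 sterol enzymes, 13 were lowest in an SR9011 group (7 in SR9011, 6 in SR9011 with TGFb), 4 in CLK8 with TGFb and 1, Ebp, in TGFb. Of the 11 fatty acid genes, 5 were lowest in SR9011, 3 in SR9011 with TGFb, 2 in TGFb and 1 in SB431542 with TGFb. CLK8 without TGFb held the highest mean for 10 of the sterol enzymes and for 8 of the fatty acid genes. Elovl6, which lengthens palmitate, had the widest range, 4.29-fold between 3.87 FPKM in SR9011 and 16.6 in CLK8. Tm7sf2, a sterol reductase, spanned 3.30-fold between 6.76 in SR9011 with TGFb and 22.3 in CLK8. Srebf2, at 1.20-fold, had the narrowest range.

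The comparison of TGFb with vehicle asked how the pathways stood in cells given the fibrogenic signal. TGFb lowered 20 of the 34 genes and raised 3 (limma, Benjamini-Hochberg adjusted p under 0.05), which is 58.8% and 8.8% of them. Of all 11297 genes tested, 34.4% were called lower and 20.5% higher. That split of all genes depended on scaling, with 25.4% lower and 26% higher in TPM and 27.5% and 27.2% after quantile normalization. In bulk RNA, fewer cells expressing a gene and less RNA per cell cannot be told apart.

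Among sterol enzymes, 10 fell and 1 rose. Tm7sf2 measured 12.0, 11.8 and 13.5 FPKM in vehicle and 6.81, 7.98 and 8.48 with TGFb. Its groups did not overlap, and the log2 change of FPKM + 1 was -0.62 ± 0.10 (SE, adjusted p = 1.2e-05). Dhcr7, which completes cholesterol, fell by 24.2% (log2 -0.39 ± 0.08, adjusted p = 0.00017). The early enzymes Acat2, Mvk, Pmvk and Mvd fell by 15.7% to 19.6%. Hmgcs1, the synthase that feeds the mevalonate step, did not differ beyond its spread, at 87.1 ± 2.28 FPKM in vehicle and 87.9 ± 3.57 with TGFb. Cyp51, the lanosterol demethylase, was the sterol enzyme that rose, from 72.2, 72.6 and 73.5 to 93.0, 88.0 and 88.4 FPKM (0.30 ± 0.07, adjusted p = 0.00087). Cyp51 overlaps Akap9 in the genome, and the strand setting of the counting is not given, so reads of the 2 genes may be mixed. The same limit holds for every value of Tm7sf2 (which overlaps Vps51), Fdft1 (Ctsb), Srebf1 (Rai1), Acss2 (Ggt7 and Gss) and Acaca (Gm11437).

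Of the regulators and transport genes, 4 of 5 fell with TGFb, including Stard4, which carries cholesterol between membranes (-0.32 ± 0.08), and Insig1 (-0.31 ± 0.08). In the fatty acid arm 6 fell and 2 rose. Fads2, a desaturase for polyunsaturated fatty acids, measured 247, 248 and 251 FPKM in vehicle and 172, 174 and 176 with TGFb, and fell by 30.0% (adjusted p = 2.7e-09). Scd2 went the other way, from 495, 488 and 512 to 619, 612 and 598 FPKM (0.29 ± 0.07, adjusted p = 0.0021), while Scd1 fell by 10.6%. Fasn, the fatty acid synthase, was at 77.6 ± 2.71 and 76.6 ± 3.81 FPKM, with overlapping groups. Of the 23 calls, 14 held in each alternative and with each library left out. In TPM 15 genes were called, 11 lower and 4 higher. The falls of Lss, Nsdhl and Elovl6, at -0.16, -0.17 and -0.19, were lost on leaving out any of 5 of the 6 libraries (values of -0.14 to -0.22), and that of Scd1 without vehicle replicate 2 (-0.15).

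Of the 3 compounds, each compared with vehicle, SR9011 lowered the most members. With it, 26 of the 34 genes fell and 4 rose, or 76.5% and 11.8%, whereas 28.3% of all tested genes were called lower and 40.7% higher (69.1% in all). For all genes the split was 33.2% lower and 32.3% higher in TPM. The members' median was -0.58 on the log2 scale, and the median of all tested genes 0.06. All comparisons with vehicle share the same 3 vehicle libraries, and all with TGFb the same 3 TGFb libraries.

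Of the 18 sterol enzymes, 17 fell with SR9011, with a median of -0.67. Idi1, which isomerises isopentenyl diphosphate, measured 60.4, 55.5 and 58.8 FPKM in vehicle and 20.6, 30.4 and 23.5 with SR9011. Every SR9011 library lay under every vehicle library, and Idi1 fell by 57.3% (log2 -1.21 ± 0.10, adjusted p = 4.5e-10). Hmgcs1 went from 88.7, 84.5 and 88.2 to 32.1, 47.7 and 38.5 FPKM, a log2 change of -1.14 ± 0.09 (adjusted p = 2.0e-10). Replicate 2 was the highest SR9011 library for both genes and replicate 1 the lowest. Acat2, which joins 2 acetyl-CoA at the head of the pathway, was tighter, at 93.8, 90.4 and 88.0 FPKM in vehicle and 48.4, 49.6 and 45.4 with SR9011 (-0.91 ± 0.05, adjusted p = 2.2e-13). Between mevalonate and lanosterol, the kinases Mvk and Pmvk, the decarboxylase Mvd, Fdps, the squalene synthase Fdft1, the squalene epoxidase Sqle and the lanosterol synthase Lss fell by 30.7% to 46.4%. After lanosterol, Cyp51, Tm7sf2, Nsdhl, Hsd17b7 and Dhcr7 fell by 35.3% to 45.1%.

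Ebp, the sterol isomerase near the end of the pathway, was the sterol enzyme that rose. It measured 38.2, 38.7 and 41.5 FPKM in vehicle and 57.3, 50.1 and 51.7 with SR9011 (0.42 ± 0.06, adjusted p = 3.5e-06). Msmo1, a methylsterol oxidase, and Sc5d, a sterol desaturase, had small falls, at -0.21 ± 0.09 and -0.17 ± 0.07, with overlapping groups. Each of these 2 calls was lost on leaving out any of 5 of the 6 libraries, with values from -0.31 to -0.14 for Msmo1 and from -0.25 to -0.11 for Sc5d.

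The regulators did not move as a block with SR9011. Stard4 went from 31.6, 31.2 and 31.9 to 14.2, 19.0 and 15.9 FPKM, and fell by 48.2% (adjusted p = 4.0e-10). Srebf1 fell by 18.6% (-0.29 ± 0.05, adjusted p = 5.0e-05), while Srebf2, at 124 ± 3.14 and 117 ± 6.34 FPKM, did not pass the test. Scap rose from 29.9, 28.4 and 28.7 to 39.8, 36.0 and 38.7 FPKM (0.38 ± 0.05, adjusted p = 3.0e-07). Insig1 was called lower at -0.26 ± 0.08, but its SR9011 values of 51.2, 69.7 and 55.1 overlapped the vehicle values of 68.2 to 71.0, and the call was lost without SR9011 replicate 1 (-0.17).

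**Figure D2:**
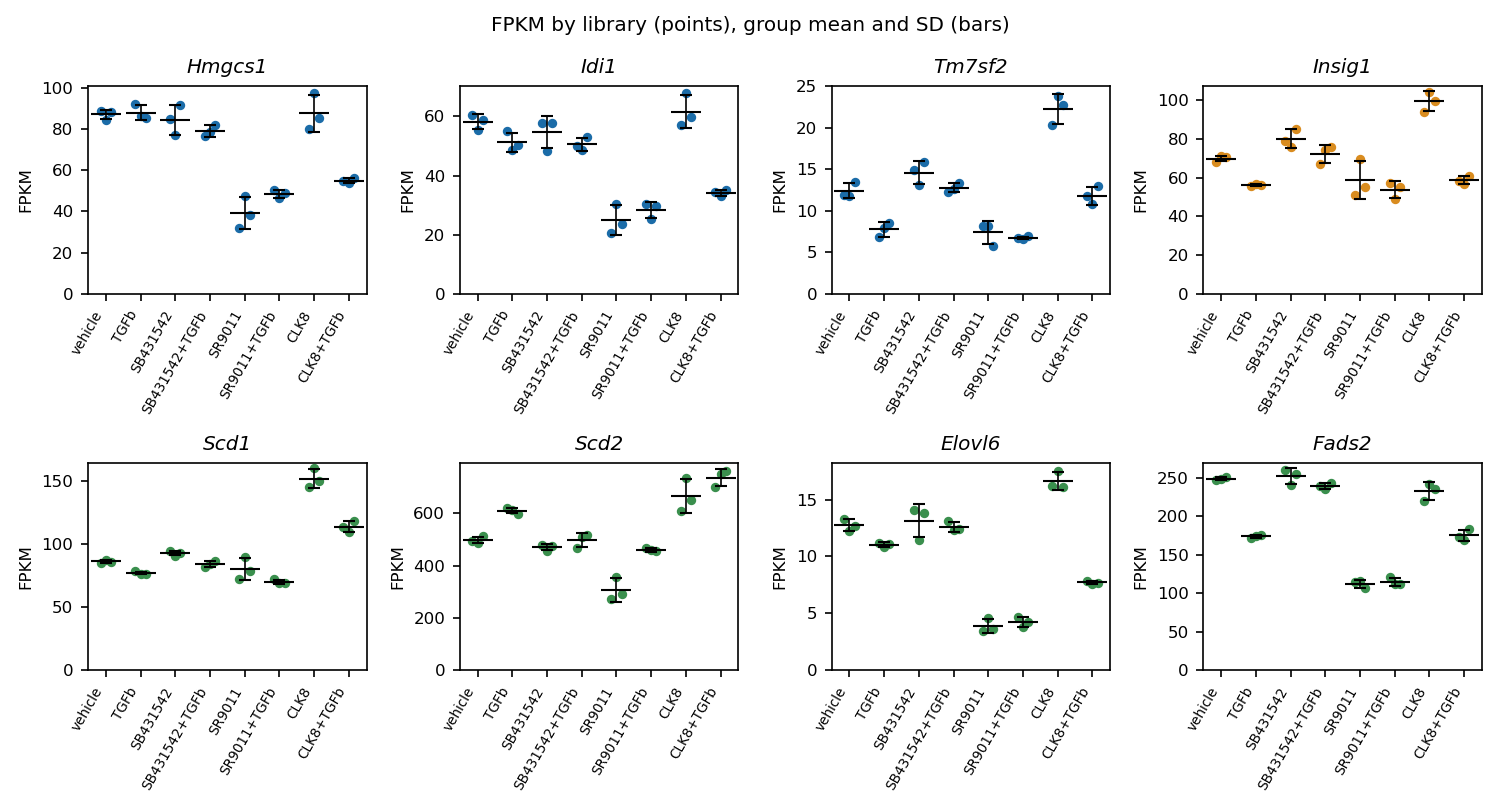
Each panel plots 1 gene in FPKM from 0, with 1 point per library and bars for the group mean and SD (n = 3). Hmgcs1, Idi1 and Elovl6 are low in both SR9011 groups and lower in CLK8 with TGFb than in CLK8, while Scd2 is highest in CLK8 with TGFb.

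In the fatty acid arm 6 genes fell with SR9011 and 2 rose. Elovl6 had the largest change of all 34 genes in this comparison, going from 13.3, 12.3 and 12.7 FPKM to 3.43, 4.59 and 3.60, and fell by 69.6% (log2 -1.50 ± 0.08, adjusted p = 5.1e-14). Fads2 fell by 54.9%, to 114, 115 and 106 FPKM (-1.14 ± 0.05, adjusted p = 9.8e-16), while its neighbour Fads1, at 180 ± 3.8 and 170 ± 12.6, did not pass the test. Scd2 fell to 271, 358 and 293 FPKM (-0.70 ± 0.07, adjusted p = 1.6e-08), and Scd1 values of 72.1, 89.4 and 78.7 overlapped those of vehicle. Fasn went from 80.1, 74.7 and 78.1 to 49.3, 52.6 and 50.9 FPKM (-0.60 ± 0.05), and the acetyl-CoA sources Acly and Acss2 fell by 20.6% and 20.7%. Acaca, which makes malonyl-CoA, stayed level at 17.5 ± 0.533 and 17.9 ± 1.17 FPKM. Me1, a source of NADPH, rose by 19.8% and Elovl5, which lengthens polyunsaturated fatty acids, by 17.9%. Of the 30 calls, 27 held in each alternative and with each library left out, and the number called was 27 without SR9011 replicate 1, 33 without replicate 2 and 28 without replicate 3.

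The same compound was compared with TGFb present in both groups. SR9011 with TGFb against TGFb lowered 24 of the 34 genes and raised 3, beside 24% lower and 36.8% higher among all tested genes, or 60.8% in all (31.7% and 26.7% in TPM, 31.5% and 30% after quantile normalization). Of the sterol enzymes 15 fell and 1 rose, with a median of -0.49. Hmgcs1 measured 92.0, 86.5 and 85.3 FPKM with TGFb and 50.5, 46.6 and 48.8 with both (-0.84 ± 0.09, adjusted p = 4.8e-08). Elovl6 went from 11.2, 10.8 and 11.1 to 4.67, 3.84 and 4.28 FPKM (-1.20 ± 0.08, adjusted p = 5.0e-12). Ebp rose from 38.4, 36.0 and 38.0 to 64.9, 64.8 and 61.1 FPKM, by 69.8% (adjusted p = 5.1e-10), and Scap by 27.0%. In these 4 genes the groups did not overlap. Tm7sf2, at -0.17 ± 0.10, was not called, at 7.76 ± 0.857 FPKM with TGFb and 6.76 ± 0.142 with both. It was called lower in TPM and after quantile normalization (-0.27 in each), with the compared groups alone (-0.17) and without TGFb replicate 1 (-0.25, the lowest over the left-out libraries, the highest being -0.11). Of the 27 calls, 24 held in each alternative and with each library left out, and Msmo1, Scd1 and Elovl5 did not (-0.22, -0.14 and 0.22).

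Whether the TGFb response of a gene differed with a compound present was tested as an interaction, the TGFb change with compound minus that without. For SR9011, 13 genes had a higher TGFb response and 2 a lower one, beside 16.6% and 15.3% of all tested genes. Fads2 fell by 30.0% with TGFb alone, but was 112 ± 4.95 FPKM with SR9011 and 115 ± 5.17 with both (interaction 0.55 ± 0.07, adjusted p = 1.6e-06). Tm7sf2 and Stard4 had interactions of 0.52 ± 0.14 and 0.51 ± 0.11. The count depended on single libraries, being 9 without SR9011+TGFb replicate 1 and 21 without SR9011 replicate 2. Of the 15 calls 9 held throughout, all of them higher, including Acat2, Mvd, Ebp, Dhcr7, Srebf1 and Fasn.

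Within SR9011, TGFb raised 8 of the 34 genes and lowered 6, against 14.3% and 31% of all tested genes (16.5% and 21% in TPM, 18.2% and 23.9% after quantile normalization). In all, 41.2% of the members and 45.3% of all tested genes were called, so the share of members called was near that of all genes. Scd2 rose from 271, 358 and 293 to 466, 458 and 454 FPKM, by 49.4% (0.59 ± 0.07, adjusted p = 8.1e-07). Cyp51 rose by 28.1%, Ebp by 19.9% and Fasn by 19.4%, while Acss2 fell by 20.8%, Elovl5 by 15.4% and Scap by 15.2%. These 7 calls held in each alternative and with each library left out. The other 7 did not. Fitted on the compared groups alone, 8 genes were called. The rise of Hmgcs1, 0.31 in all libraries, was 0.18 and no longer called without SR9011 replicate 1. That of Hsd17b7, at 0.28, was 0.11 without replicate 1 and 0.43 without replicate 2, and that of Srebf1, at 0.14, was 0.07 without replicate 3. The fall of Scd1, -0.19, was -0.11 and not called without replicate 2.

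CLK8 without TGFb raised 16 of the 34 genes and lowered 1, beside 30.3% higher and 13.6% lower (43.9% in all) among all tested genes, which became 21.1% and 19.4% after quantile normalization. In the fatty acid arm 9 of 11 genes rose, among sterol enzymes 4 of 18, and among regulators and transport genes 3 of 5. The medians were 0.34, 0.07 and 0.25 on the log2 scale, and that of all tested genes was 0.07. No test compared the arms with each other.

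Scd1 had the largest rise with CLK8, from 85.2, 87.6 and 85.9 FPKM in vehicle to 145, 160 and 150 (log2 0.81 ± 0.05, adjusted p = 6.5e-11). Scd2 rose to 609, 736 and 650 FPKM (0.41 ± 0.07, adjusted p = 9.3e-05). The groups did not overlap in either gene, and CLK8 replicate 2 was the highest library of both. Acaca, Elovl5, Elovl6 and Fads1 rose by 26.6% to 32.1%, and Fasn and Acss2 by 19.3% and 20.4%. Acly rose by 9.0%, a call lost on leaving out vehicle replicate 2 or 3 or CLK8 replicate 2 (0.10 to 0.15 over the left-out libraries). Fads2, at 248 ± 2.29 and 232 ± 11.7, and Me1 were not called.

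Among sterol enzymes, the genes that rose with CLK8 all act after lanosterol, but not all late enzymes rose. Cyp51, Msmo1, Nsdhl and Dhcr7, which also act after it, were not called (-0.08, 0.17, 0.01 and 0.02). Tm7sf2 went from 12.0, 11.8 and 13.5 to 20.3, 23.9 and 22.7 FPKM, by 79.6% (adjusted p = 6.6e-07). Ebp rose to 56.7, 56.3 and 57.6 FPKM (0.52 ± 0.06, adjusted p = 5.4e-07) and Hsd17b7 to 10.6, 11.4 and 10.5 (0.40 ± 0.11, adjusted p = 0.0039). The rise of Sc5d, 0.21 ± 0.07, was lost on leaving out CLK8 replicate 2 (0.13) or vehicle replicate 2 or 3. Lss fell from 42.2, 40.2 and 41.2 to 31.9, 34.4 and 34.3 FPKM (-0.29 ± 0.06, adjusted p = 0.00039). The early enzymes did not pass the test: Hmgcs1 measured 80.0, 97.6 and 85.4 FPKM, on both sides of the vehicle values, and Idi1 57.0, 67.9 and 59.9. Of the regulators, Scap rose by 47.0% (adjusted p = 6.6e-09), Insig1 from 68.2, 71.0 and 70.6 to 94.1, 104 and 99.8 FPKM (adjusted p = 2.0e-05), and Srebf1 by 19.4%. Srebf2 stayed level at 125 ± 1.26 FPKM.

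With TGFb present the sterol arm took another course. CLK8 with TGFb against TGFb lowered 18 of the 34 genes and raised 9, beside 13.3% lower and 27.7% higher among all tested genes, or 41.1% in all (20.2% and 19.8% after quantile normalization). Of the 18 sterol enzymes 15 fell, with a median of -0.38 for the arm. Lss measured 36.9, 36.9 and 36.6 FPKM with TGFb and 21.5, 20.9 and 22.0 with both, and fell by 41.7% (log2 -0.75 ± 0.06, adjusted p = 1.3e-09). Hmgcs1 went from 92.0, 86.5 and 85.3 to 54.7, 53.7 and 56.2 FPKM (-0.67 ± 0.09, adjusted p = 4.3e-06), and Mvd from 31.8, 31.5 and 34.8 to 21.0, 20.2 and 21.5 (-0.62 ± 0.06, adjusted p = 9.3e-09). None of these groups overlapped. Idi1, Fdps, Cyp51 and Msmo1 fell by 30.8% to 33.3%.

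The exceptions among sterol enzymes were Tm7sf2, which rose by 52.5% (adjusted p = 9.5e-05), Ebp, which rose by 40.3% (adjusted p = 2.6e-06), and Hsd17b7, which was not called at 7.84 ± 0.468 and 7.15 ± 0.637 FPKM. Srebf1 rose from 39.0, 43.5 and 45.5 to 53.9, 56.7 and 56.0 FPKM (0.38 ± 0.05, adjusted p = 7.8e-06) and Scap by 26.4%, while Insig1, Stard4 and Srebf2 were not called. In the fatty acid arm, Scd1 rose from 78.2, 76.5 and 76.6 to 113, 109 and 118 FPKM (0.55 ± 0.05, adjusted p = 3.8e-08), and Elovl5, Scd2 and Fads1 rose by 18.0% to 27.3%. Elovl6 fell from 11.2, 10.8 and 11.1 to 7.88, 7.62 and 7.71 FPKM (-0.46 ± 0.08, adjusted p = 4.4e-05). Calls for Sc5d, Acaca, Acly and Me1 did not hold in every alternative, and the other 23 of 27 did. That for Acaca, 0.13, was lost whichever library was left out (0.12 to 0.14).

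**Figure D3:**
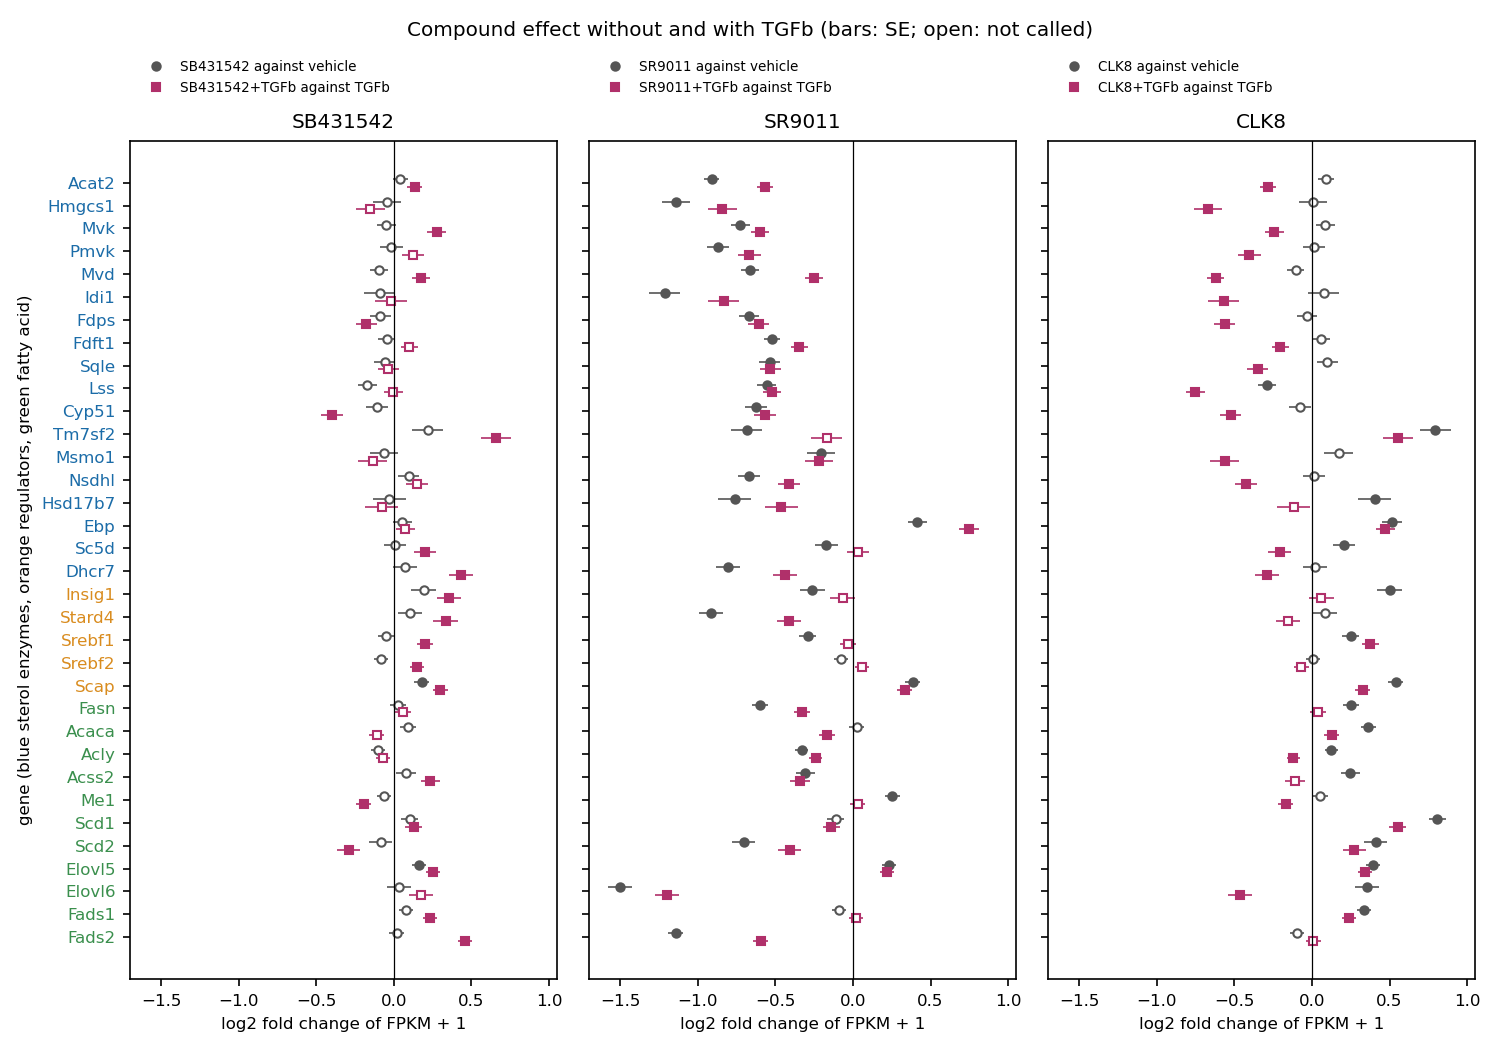
For each compound, points give the log2 fold change of FPKM + 1 per gene against vehicle (grey circles) and, with TGFb in both groups, against TGFb (red squares), bars the SE, and open symbols the genes that were not called. For SR9011 both sets lie left of 0 for most sterol enzymes, whereas for CLK8 the grey points lie near 0 and the red points left of 0.

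TGFb within CLK8 lowered 29 of the 34 genes and raised none of them, beside 34.6% lower and 17.3% higher among all tested genes, or 51.9% in all (21.5% and 25.9% in TPM, 26.6% and 24.1% after quantile normalization). It lowered 16 of 18 sterol enzymes, 4 of 5 regulators and transport genes and 9 of 11 fatty acid genes. Idi1 went from 57.0, 67.9 and 59.9 FPKM to 34.5, 33.0 and 35.0, and fell by 44.5% (-0.83 ± 0.10, adjusted p = 3.8e-07). Msmo1 fell from 98.6, 115 and 97.8 to 64.0, 59.0 and 60.4 FPKM (-0.75 ± 0.09), Insig1 by 40.9% and Elovl6 from 16.2, 17.5 and 16.1 to 7.88, 7.62 and 7.71 FPKM (-1.01 ± 0.08, adjusted p = 1.1e-10). Every library with TGFb lay under every library without it in these 4 genes. Cyp51, Ebp, Srebf1, Acaca and Scd2 were not called, and Scd2 was called higher in TPM (0.25) and after quantile normalization (0.31). Of the 29 falls, 27 held throughout, all but those of Fasn and Me1.

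The difference between these TGFb responses was tested directly. The interaction of CLK8 with TGFb was negative and called for 22 of the 34 genes and positive for none, beside 3.39% and 4.58% of all tested genes, or 7.97% in all (1.82% and 4.86% in TPM). It was called for 15 of 18 sterol enzymes, 1 of 5 regulators and transport genes and 6 of 11 fatty acid genes. Hmgcs1, which TGFb changed by 0.01 ± 0.09 without compound, changed by -0.66 ± 0.09 in CLK8 (interaction -0.67 ± 0.13, adjusted p = 0.0015). Msmo1 had an interaction of -0.73 ± 0.13 (adjusted p = 0.0007), Idi1 of -0.65 ± 0.14 (adjusted p = 0.0051), Fdps of -0.53 ± 0.09 (adjusted p = 0.0007) and Mvd of -0.52 ± 0.08 (adjusted p = 0.00015). Elovl6 had the largest, at -0.82 ± 0.11 (adjusted p = 2.2e-05). Tm7sf2, Ebp, Dhcr7, Stard4, Srebf1, Srebf2, Fads1 and Fads2 were among the 12 genes not called. In TPM 12 genes were called, all negative, and leaving out single libraries gave 16 to 20. The 12 calls that held in each alternative and with each library left out comprised 11 sterol enzymes and Elovl6.

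**Figure D4:**
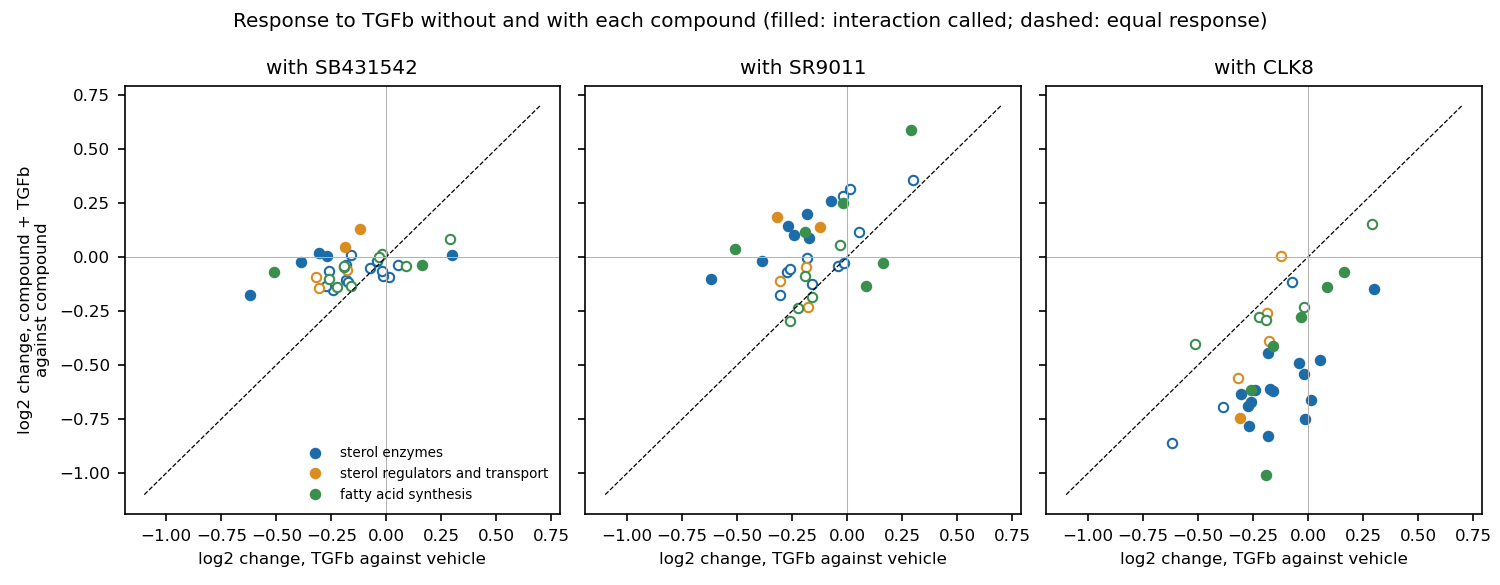
Each point is 1 gene, with its log2 response to TGFb without compound on the x axis and with the compound on the y axis, filled where the interaction was called and coloured by arm. Points lie near 0 on the y axis with SB431542, and with CLK8 most sterol enzymes lie well under the dashed line of equal response.

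SB431542 was compared to ask what the receptor inhibitor does to the same genes. Without TGFb, 2 of the 34 genes rose and none fell, beside 11.9% and 5.05% of all tested genes (8.29% and 7.63% after quantile normalization), and at an unadjusted p under 0.05 there were 6. The 2 were Scap, from 29.9, 28.4 and 28.7 to 34.04, 31.7 and 33.2 FPKM (0.18 ± 0.05, adjusted p = 0.012), and Elovl5 (0.16 ± 0.05, adjusted p = 0.014). Neither held throughout. Without vehicle replicate 2 none of the 34 was called. The call of Scap was also lost without SB431542 replicate 1 (0.16 to 0.21 over the left-out libraries) and that of Elovl5 without SB431542 replicate 3 (0.13 to 0.19).

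TGFb within SB431542 changed none of the 34 genes by limma at the threshold, with 4 at an unadjusted p under 0.05, beside 2.01% of all tested genes called higher and 2.35% lower, or 4.36% in all (1.81% and 1.25% in TPM). Fads2 measured 260, 240 and 255 FPKM with SB431542 and 239, 235 and 243 with both, with overlapping groups. Tm7sf2 was at 14.9, 13.1 and 15.9 against 12.3, 12.7 and 13.4 FPKM, also overlapping. Without SB431542 replicate 2, Acat2 was called (-0.12 to -0.20 over the left-out libraries).

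With TGFb in both groups, SB431542 raised 16 genes and lowered 4, beside 38.3% and 21.4% of all tested genes (32.5% and 23.5% in TPM, 29.3% and 30.5% after quantile normalization). In all, 58.8% of the members and 59.7% of all tested genes were called, so the share of members called was near that of all genes. Tm7sf2 rose from 6.81, 7.98 and 8.48 to 12.3, 12.7 and 13.4 FPKM (0.66 ± 0.10, adjusted p = 4.2e-06) and Fads2 from 172, 174 and 176 to 239, 235 and 243 (0.46 ± 0.05, adjusted p = 1.4e-08). Dhcr7 rose by 36.4%, Insig1 by 28.6%, Stard4 by 27.1% and Scap by 23.9%. Cyp51 fell by 24.4% and Scd2 by 18.3%, which both stood higher with TGFb than in vehicle. The interaction was called for 9 genes, 7 higher and 2 lower, against 21.5% and 12.8% of all tested genes (15.9% and 15% in TPM, 18% and 17.4% after quantile normalization), and for 5 genes in TPM or without TGFb replicate 1. Of the 9, Mvk (0.32 ± 0.08) and Fads2 (0.44 ± 0.07, adjusted p = 1.6e-05) held throughout.

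Neighbouring parts of lipid metabolism, taken from lists of related genes, were counted in the same fits. The counts stand beside 40.7% higher and 28.3% lower among all tested genes with SR9011 against vehicle, and 30.3% and 13.6% with CLK8. Of 13 tested genes for cholesterol storage and transport inside the cell, 10 rose with SR9011 and none fell, with a median of 0.43 against 0.06 for all tested genes. They included Npc1, which moves cholesterol out of lysosomes, from 11.7 ± 0.0981 to 27.3 ± 0.181 FPKM (log2 1.16 ± 0.04), and Stard5, a sterol carrier (1.58 ± 0.06). With CLK8 8 of the 13 rose and 1 fell, with Npc1 at 0.66 ± 0.04. Other genes of fatty acid and triglyceride synthesis, 28 tested, had 14 that rose and 6 that fell with SR9011, with a median of 0.125. With CLK8, 11 of these 28 rose and 1 fell. Of 11 tested genes of lipid droplets and lipolysis, 7 rose and 2 fell with SR9011, including the droplet coat genes Plin3 (0.81 ± 0.05) and Plin2 (0.57 ± 0.06). Of 22 tested genes of fatty acid oxidation, 11 rose and 6 fell with SR9011, near the shares of all genes, and Cpt1a, the gatekeeper of mitochondrial import, was at 0.55 ± 0.05.

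Among 19 other sterol enzymes and SREBP processing genes, 8 rose and 4 fell with SR9011, near the 40.7% and 28.3% of all tested genes. Erlin1, which takes part in sterol-dependent protein turnover, rose from 33.4 ± 0.728 to 88.9 ± 1.70 FPKM (log2 1.39 ± 0.05). Of 15 genes of the isoprenoid branch, which leaves the sterol pathway at farnesyl diphosphate, 8 rose and 1 fell with SR9011, beside the same shares. Of 10 tested genes of cholesterol export and LXR, 7 fell and none rose with TGFb, beside 34.4% lower and 20.5% higher among all tested genes (25.4% and 26% in TPM). The exporter Abca1 was at 6.55 ± 0.0416 FPKM in vehicle and 1.47 ± 0.115 with TGFb (-1.61 ± 0.09, adjusted p = 2.0e-13).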

How the data were processed

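RNA-seq libraries of 24 samples were analysed from FPKM values that the authors deposited for the whole series. The 8 groups of 3 were assigned from the treatment labels, which give the vehicle group as No treatment. Per the submitters' processing notes, HISAT2 2.0.4, Bowtie2 2.2.5, RSEM and DESeq2 were used with the mouse build mm10; no source used here gives the role of each or the strand setting. Libraries were built at BGI, and 1 of 2 RNA kits was used per sample, which one not being given. Of 16620 lines, 16 lines of 8 repeated gene identifiers were left out, and 43 identifiers had no symbol.

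Genes with at least 1 FPKM in at least 3 libraries (11297 of 16604) entered limma 3.58.1 (R 4.3.3) as log2(FPKM + 1), with all 8 groups in 1 model, a variance trend and robust moderation, and Benjamini-Hochberg adjustment over all tested genes at 0.05. A fold change on this scale understates the change of low genes. The script was tested on simulated data. Tables and figures used Python 3.11.15, numpy 2.4.6, pandas 2.3.3 and matplotlib 3.10.9. Absolute sequencing depth is unknown, since FPKM does not keep it, and the number of replicates sets the precision. Relative depth, estimated from the smallest values of 16 low genes, ran from 0.92 to 1.06 over the libraries. The p-values and SE use 1 moderated spread per gene, pooled over the 3 samples of each of the 8 groups in 1 cell line. They do not measure the spread of the compared groups alone, and can understate it for the more scattered SR9011 group.

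All 34 member genes are named, with at most 3 called genes of smallest adjusted p for each related list, not all of which are reported here. The members and lists were chosen with earlier results of these data known. Alternatives were other pseudocounts, filters, TPM, quantile normalization, no variance trend, the compared groups alone, a replicate block and leaving out each library. Same-numbered samples correlated above 0.1 in all 3 pairs only between SB431542 and SB431542 with TGFb (0.415, 0.208 and 0.117). The main fit did not pair samples there or elsewhere, and replicate numbers entered only in the replicate block.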

Additional observations from a re-analysis of the deposited data

Results flagged for a closer look

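The response to TGFb differed between cells with and without CLK8 in 22 genes, by the interaction term of the limma model (adjusted p under 0.05). It was lower with CLK8 in every one of them. They are 64.7% of the 34 members, beside 7.97% of all tested genes called. The interaction was lower with the compound, on the log2 scale, at -0.82 for Elovl6, -0.73 for Msmo1, -0.67 for Hmgcs1, -0.65 for Idi1, -0.53 for Fdps and -0.52 for Hsd17b7. It was -0.52 for Mvd, -0.46 for Lss, -0.45 for Sqle, -0.45 for Cyp51, -0.44 for Insig1 and -0.44 for Nsdhl. It was -0.42 for Pmvk, -0.41 for Sc5d, -0.37 for Acat2, -0.36 for Acss2, -0.33 for Mvk and -0.26 for Fdft1. It was -0.25 for Scd1, -0.24 for Acly, -0.24 for Acaca and -0.22 for Me1. The 12 that held in each alternative and with each library left out were Acat2, Hmgcs1, Pmvk, Mvd, Idi1, Fdps, Sqle, Lss, Cyp51, Msmo1, Nsdhl and Elovl6.

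With SR9011 the same test called 15 genes, 44.1% of the 34 members, beside 31.9% of all tested genes. Of these 15 calls, 9 held in each alternative and with each library left out. The interaction was higher with the compound, on the log2 scale, at 0.55 for Fads2, 0.52 for Tm7sf2, 0.51 for Stard4, 0.41 for Mvd, 0.38 for Idi1 and 0.37 for Dhcr7. It was 0.34 for Acat2, 0.33 for Ebp, 0.31 for Elovl6, 0.30 for Scd2, 0.27 for Fasn and 0.26 for Srebf1. It was 0.26 for Nsdhl. The interaction was lower with the compound, on the log2 scale, at -0.22 for Me1 and -0.19 for Acaca. All 3 SR9011 libraries stood further from their group mean than any other library, and the part of that spread in these values was not tested.

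With SB431542 the same test called 9 genes, 26.5% of the 34 members, which is under the 34.3% of all tested genes. Only the calls of Mvk and Fads2 held in each alternative and with each library left out. The interaction was higher with the compound, on the log2 scale, at 0.44 for Tm7sf2, 0.44 for Fads2, 0.36 for Dhcr7, 0.32 for Mvk, 0.27 for Mvd and 0.25 for Srebf1. It was 0.23 for Srebf2. The interaction was lower with the compound, on the log2 scale, at -0.29 for Cyp51 and -0.20 for Acaca.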

How the results depend on the processing

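No called value of a member gene changed direction under any alternative run. The number of the 34 genes called moved by more than 1.5 times in these cases. In TPM it was 15 for TGFb against vehicle, 5 for the SB431542 interaction and 12 for the CLK8 interaction. Fitted on the compared groups alone it was 8 for SR9011 with TGFb against SR9011. Over the left-out libraries, it ran from 20 to 22 for TGFb, 0 to 2 for SB431542, 27 to 33 for SR9011 and 15 to 17 for CLK8, each against vehicle. Against TGFb it ran from 16 to 19 for SB431542, 25 to 27 for SR9011 and 24 to 26 for CLK8, each with TGFb. Within the compounds TGFb called 0 to 1 gene with SB431542, 10 to 14 with SR9011 and 28 to 29 with CLK8. The interactions called 5 to 10 genes for SB431542, 9 to 21 for SR9011 and 16 to 20 for CLK8. The cause of these moves was not tested. The replicate block ended the calls of Msmo1 with SR9011 against vehicle (-0.21) and with TGFb in both groups (-0.22), of Acaca with CLK8 and TGFb against TGFb (0.13) and of Idi1 in the SR9011 interaction (0.38). It added Scap to the CLK8 interaction (-0.21) and changed no other call. That includes SB431542 with TGFb against SB431542, which the main fit left unpaired. Of 442 single-gene values, 235 were called, and TPM ended 45 of these calls and added 6, quantile normalization ended 27 and added 10, and a filter at 5 FPKM changed none.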
